A study of Homo sapiens with 12 samples.

Results

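The genes described here are 8 genes of antigen presentation by major histocompatibility complex (MHC) class II: HLA-DRA, HLA-DPA1, HLA-DPB1, CD74, HLA-DMA, HLA-DMB, CTSS and CIITA. They are 8 of 19775 genes with a probe set of a single symbol, and every probe set annotated to one of them was read, 18 of 54613. The genes were chosen by their log2 intensities in the 4 groups, that is, with the differences described below already known, so their values are given as a description, without p-values. Expression was measured on 12 single-colour Affymetrix arrays of MDA231 (MDA-MB-231), an established human triple-negative breast cancer line, in 4 groups of 3 arrays. ETX cells carried the scrambled hairpin and received ETX. The labels leave that abbreviation unexplained. It is taken to mean etomoxir, which blocks CPT1, the outer carnitine palmitoyltransferase of mitochondria. The shCPT-1 and shCPT-2 cells carried pGIPZ lentiviral hairpins against CPT1, of an isoform the labels do not name, and against CPT2. Scramble cells carried the scrambled hairpin alone. All groups thus carried a hairpin construct. The labels do not give the number of hairpins or clones per group, or the dose and time of ETX for these arrays. They also do not say whether replicate arrays stem from separate cultures, so the tests cover array-to-array spread that may be technical.

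MHC class II molecules are pairs of an alpha and a beta chain that carry peptides from the endosomal pathway to the cell surface, where CD4+ T cells read them. The invariant chain CD74 fills the groove of new pairs and guides them to endosomes, proteases such as cathepsin S trim it to a short fragment, and HLA-DM exchanges that fragment for peptide. Professional antigen-presenting cells make these genes constantly, while most other cells, tumour cells included, make them mainly after interferon gamma, which induces the coactivator CIITA. CIITA binds no DNA itself and acts through factors on the X and Y boxes of class II promoters: the RFX complex, CREB proteins and NF-Y.

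The RefSeq table (GRCh38.p14) held promoters of 5 of the 8 genes, CD74, HLA-DMA, HLA-DMB, HLA-DPA1 and HLA-DPB1. HLA-DRA, CIITA and CTSS are named only. Each promoter was 300 bases, 250 before the start and 50 from it on. On both strands 3 motifs were searched, chosen after the sequences had been read: CCAAT, the core that NF-Y binds in the Y box; ACNGATG, used as an X-box core; and a pair of GAAA copies with 2 bases between them, a pattern of interferon response elements. The promoters of the HLA-DM chains and of CD74 are shown because they held both box cores and because these 3 genes were low in shCPT-2 cells. Capitals mark CCAAT and ACNGATG on either strand, and each promoter reads 5′ to 3′ along its gene's minus strand, at chr6:32953048-32953347 for HLA-DMA, chr6:32940979-32941278 for HLA-DMB and chr5:150412861-150413160 for CD74.
HLA-DMA: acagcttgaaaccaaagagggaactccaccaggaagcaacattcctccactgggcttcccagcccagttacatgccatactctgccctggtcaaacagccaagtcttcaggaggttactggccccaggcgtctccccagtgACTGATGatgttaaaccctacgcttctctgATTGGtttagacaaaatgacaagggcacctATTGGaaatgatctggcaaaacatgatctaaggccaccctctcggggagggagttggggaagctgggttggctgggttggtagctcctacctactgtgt
HLA-DMB: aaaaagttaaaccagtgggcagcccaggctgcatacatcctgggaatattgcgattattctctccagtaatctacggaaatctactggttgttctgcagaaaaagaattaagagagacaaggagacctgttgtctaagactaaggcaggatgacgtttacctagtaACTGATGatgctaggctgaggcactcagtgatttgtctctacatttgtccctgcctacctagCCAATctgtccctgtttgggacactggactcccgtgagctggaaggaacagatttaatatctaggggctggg
CD74: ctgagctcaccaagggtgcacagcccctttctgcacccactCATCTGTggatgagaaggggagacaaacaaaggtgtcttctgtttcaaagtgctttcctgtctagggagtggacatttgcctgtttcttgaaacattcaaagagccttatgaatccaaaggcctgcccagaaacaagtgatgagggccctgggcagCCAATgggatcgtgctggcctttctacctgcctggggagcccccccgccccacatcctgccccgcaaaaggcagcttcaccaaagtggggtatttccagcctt
In HLA-DMA the X core began at base -109 from the start and the nearer Y core, on the opposite strand, at -79, with 23 bases between them. HLA-DMB had these cores at -84 and -22, with 55 bases between, and CD74 at -209, on the opposite strand, and -53, with 149 between. CCAAT stood in 12155 of 35116 promoters (34.6%) and in those of 4 of the 5 genes, ACNGATG in 7.65% and in 3 of the 5, and both in 2.78% and in the same 3. The paired GAAA stood in 3.57% of all promoters and in 0 of the 5 genes, which says only that these letters are not in these windows. A match is a description of letters and not of a bound site. In CD74 the ACNGATG match lay on the opposite strand and farther from the Y core than in the HLA-DM genes. It is not taken for the X box of CD74. Nearer its Y core CD74 holds agtgatg, which differs from ACNGATG in a single letter and was not marked. Since the motifs were chosen after the sequences had been read, nothing is read from these counts.

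The arrays were alike in scale, with medians between 74.9 and 77.2 intensity units (6.23 to 6.27 on the log2 scale), and replicate arrays correlated at 0.9945 to 0.9989, above the highest correlation between groups, 0.9913. CPT1A averaged 8.19 ± 0.13 in shCPT-1 cells and 9.78 ± 0.12 in scramble cells (log2 intensity, SD, n = 3 each), a difference of -1.59 (limma, adjusted p = 1.97e-08). CPT2 averaged 6.41 ± 0.19 in shCPT-2 cells and 7.41 ± 0.09 in scramble cells (limma, adjusted p = 5.46e-06). Both genes also differed in other groups. CPT1A differed from scramble by 1.11 in ETX cells and by -0.23 in shCPT-2 cells (limma, adjusted p = 1.46e-06 and 0.0318). CPT2 differed by 0.27 in ETX cells and by 0.22 in shCPT-1 cells (limma, adjusted p = 0.043 and 0.0987). The 7 genes listed as markers of MDA231 were above the array median on every array. Of 6 genes listed as absent or low in this line, PGR and CDH1 were never above it and FOXA1 was on 5 arrays, but ESR1, GATA3 and EPCAM were on all 12. In bulk RNA, fewer cells making a gene and less RNA per cell cannot be told apart.

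By their brightest probe sets, the class II chain genes were lowest in shCPT-2 cells. HLA-DRA encodes the alpha chain of HLA-DR, at chromosome 6, 32439887 to 32445046 (GRCh38.p14). Its probe set 208894_at read 8.85, 8.99 and 8.76 log2 intensity in ETX cells, 8.85, 8.57 and 8.49 in shCPT-1 cells, 6.83, 6.53 and 7.07 in shCPT-2 cells, and 8.51, 8.49 and 8.69 in scramble cells. Every shCPT-2 array lay below every other array, while shCPT-1 overlapped both ETX and scramble. The mean in shCPT-2 cells differed from that in scramble cells by -1.75 on the log2 scale (SE 0.126, 3.37-fold lower), the value of rank 34 from the lowest among 12886 tested genes. ETX cells lay 0.30 above scramble cells and shCPT-1 cells 0.07. The other HLA-DRA probe set, 210982_s_at, read 6.81, 6.76 and 6.9 in shCPT-2 cells, against 8.24, 8.32 and 8.69 in scramble cells, a difference of -1.59. There ETX overlapped scramble.

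HLA-DPA1 encodes the alpha chain of HLA-DP (chromosome 6, 33064569 to 33080748). Probe set 211990_at read 7.43, 7.53 and 7.3 in ETX cells, 7.8, 7.75 and 7.82 in shCPT-1 cells, 6.43, 6.21 and 6.48 in shCPT-2 cells, and 7.32, 7.37 and 7.36 in scramble cells. All shCPT-1 arrays were above, and all shCPT-2 arrays below, those of the other groups, and ETX overlapped scramble. The mean differed from scramble by -0.98 in shCPT-2 cells (SE 0.072, 1.97-fold lower) and by 0.44 in shCPT-1 cells (1.35-fold higher). One of the 3 shCPT-2 arrays was not above its array median, so the level there is near background. The size depended on the probe set: 211991_s_at differed by -0.24 in shCPT-2 cells and 0.28 in shCPT-1 cells, and the dim 213537_at by -0.46 and 0.23, the last with overlapping groups. The mean of the kept probe sets gave -0.61 in shCPT-2 cells.

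HLA-DPB1, the beta chain of HLA-DP (chromosome 6, 33075990 to 33089696), was not tested, since neither probe set exceeded the array median on 3 arrays. The brighter, 201137_s_at, read 6.31, 5.97 and 6.05 in ETX cells, 6.24, 6.11 and 6.2 in shCPT-1 cells, 5.73, 5.7 and 5.71 in shCPT-2 cells, and 5.92, 6.01 and 5.96 in scramble cells. The order of means, shCPT-1, ETX, scramble and shCPT-2, was that of HLA-DPA1, with shCPT-1 at 0.22 and shCPT-2 at -0.25 from scramble, neither overlapping it. The other, 244485_at, was never above the median and was 0.12 higher in shCPT-2 than in scramble cells, without overlap.

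CD74, the invariant chain (chromosome 5, 150401639 to 150412910), was also low in shCPT-2 cells. Probe set 209619_at read 10.56, 10.51 and 10.59 in ETX cells, 10.58, 10.67 and 10.61 in shCPT-1 cells, 9.44, 9.37 and 9.39 in shCPT-2 cells, and 10.95, 10.89 and 10.62 in scramble cells. The shCPT-2 arrays lay below all others by more than the spread within any group, and scramble overlapped shCPT-1 but not ETX. The mean differed from scramble by -1.42 in shCPT-2 cells (SE 0.071, 2.68-fold lower), by -0.27 in ETX cells and by -0.20 in shCPT-1 cells. The 2 other CD74 probe sets were dim and showed less: 1567627_at differed by -0.13 with overlapping groups and 1567628_at by -0.29. With the mean of the kept probe sets the value in shCPT-2 cells was -0.78.

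**Figure D1:**
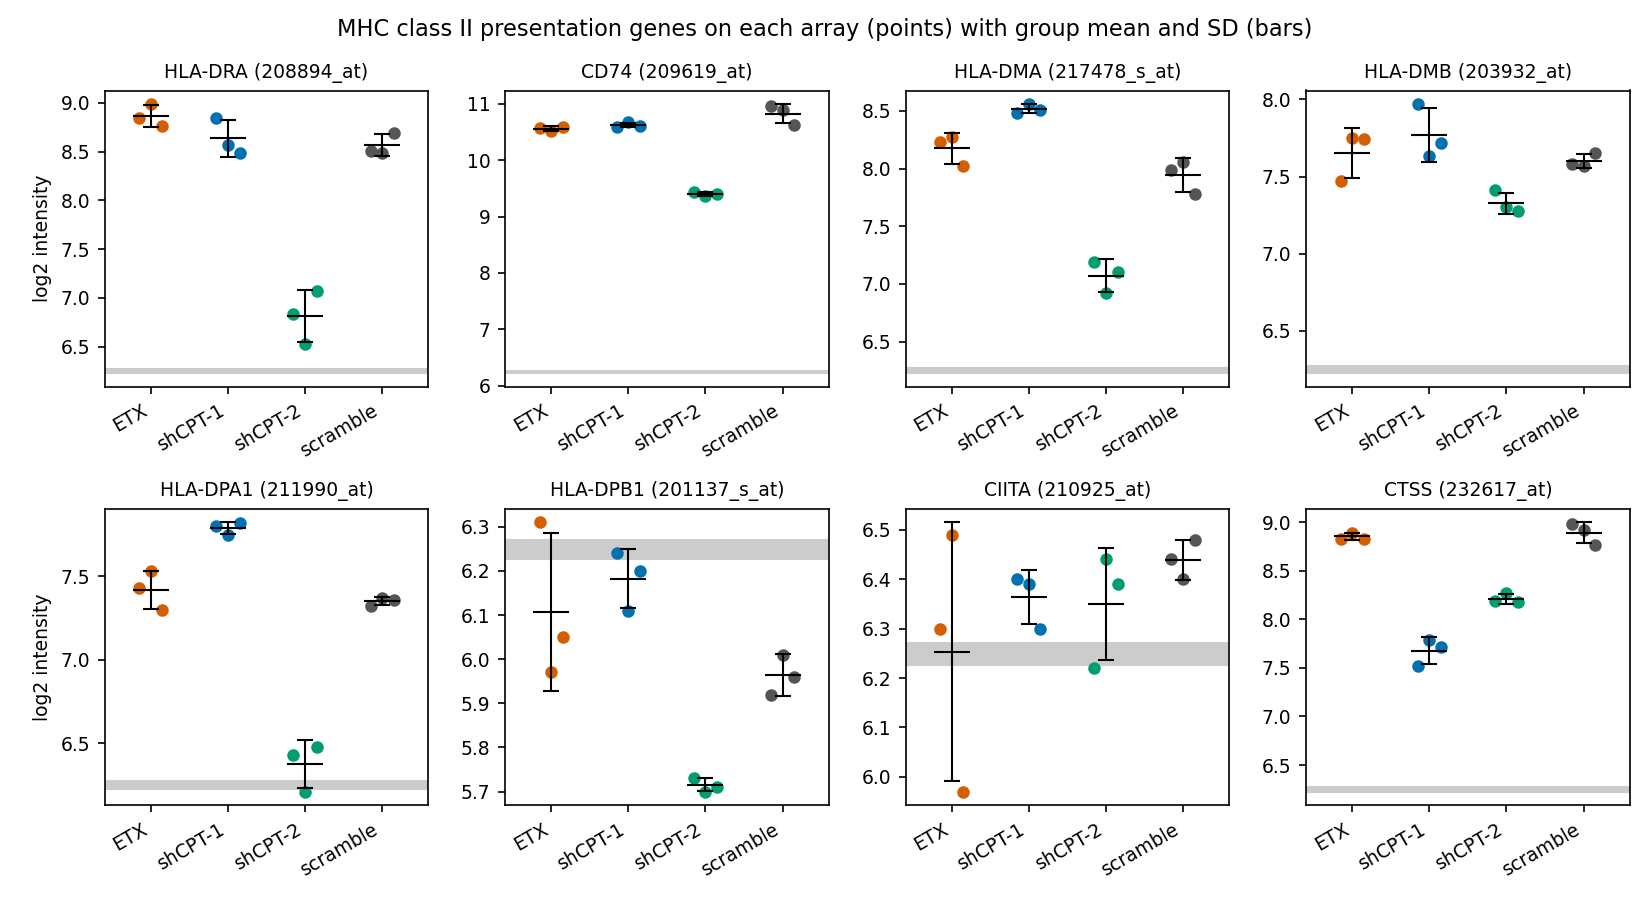
Log2 intensity of 1 probe set for each of the 8 genes on each array (points), with the group mean and SD (bars, n = 3), and the range of array medians as a grey band; each panel has its own axis, which does not start at 0. The shCPT-2 arrays are the lowest for HLA-DRA, CD74, HLA-DMA, HLA-DMB, HLA-DPA1 and HLA-DPB1, the shCPT-1 arrays are the lowest for CTSS, and the CIITA groups overlap.

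HLA-DM, the exchange factor, is made of HLA-DMA and HLA-DMB, neighbours on chromosome 6 (32948618 to 32953097 and 32934636 to 32941028). HLA-DMA 217478_s_at, its one probe set, read 8.23, 8.27 and 8.02 in ETX cells, 8.48, 8.56 and 8.51 in shCPT-1 cells, 7.19, 6.92 and 7.1 in shCPT-2 cells, and 7.99, 8.06 and 7.78 in scramble cells. All shCPT-1 arrays were highest and all shCPT-2 arrays lowest, and ETX overlapped scramble. The difference from scramble was -0.87 in shCPT-2 cells (SE 0.089, 1.83-fold lower) and 0.57 in shCPT-1 cells (1.49-fold higher). HLA-DMB 203932_at differed less. It read 7.47, 7.75 and 7.74 in ETX cells, 7.97, 7.63 and 7.72 in shCPT-1 cells, 7.41, 7.3 and 7.28 in shCPT-2 cells, and 7.58, 7.57 and 7.65 in scramble cells. Its shCPT-2 mean differed from scramble by -0.27 (SE 0.090, 1.21-fold lower), without overlap, while ETX and shCPT-1 overlapped scramble.

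CTSS, cathepsin S, which trims the invariant chain (chromosome 1, 150730188 to 150765778), had another order. Probe set 232617_at read 8.83, 8.89 and 8.83 in ETX cells, 7.52, 7.79 and 7.72 in shCPT-1 cells, 8.19, 8.27 and 8.18 in shCPT-2 cells, and 8.98, 8.92 and 8.77 in scramble cells. Both knockdown groups lay below the others and shCPT-1 was the lowest, while ETX overlapped scramble. The mean differed from scramble by -1.21 in shCPT-1 cells (SE 0.071, 2.32-fold lower) and by -0.68 in shCPT-2 cells (1.60-fold lower). The probe sets disagreed on ETX: 202902_s_at read 8.81, 8.86 and 8.89 in ETX cells, against 8.09, 8.21 and 8.17 in scramble cells, and was 0.70 higher, 202901_x_at was 0.57 higher, and 232617_at differed by -0.04. All 3 were lowest in shCPT-1 cells, at -0.80 to -1.21 from scramble, and in shCPT-2 cells 202902_s_at stood at -0.17 (with overlap), 202901_x_at at -0.42 and 232617_at at -0.68.

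CIITA, the coactivator (chromosome 16, 10866206 to 10943021), was near background. Its kept probe set, 210925_at, read 6.3, 6.49 and 5.97 in ETX cells, 6.4, 6.39 and 6.3 in shCPT-1 cells, 6.22, 6.44 and 6.39 in shCPT-2 cells, and 6.44, 6.4 and 6.48 in scramble cells. All groups overlapped, and the differences from scramble were -0.19, -0.08 and -0.09 (SE 0.104). Probe set 205101_at, above the array median on 2 arrays, both of scramble cells, read 5.62, 5.77 and 5.45 in shCPT-2 cells, against 6.64, 6.15 and 6.51 in scramble cells, without overlap. The third, 211884_s_at, was never above the median and overlapped in every comparison with scramble. With signals this near the array median, neither a difference in CIITA RNA nor its absence is read from these probe sets.

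**Figure D2:**
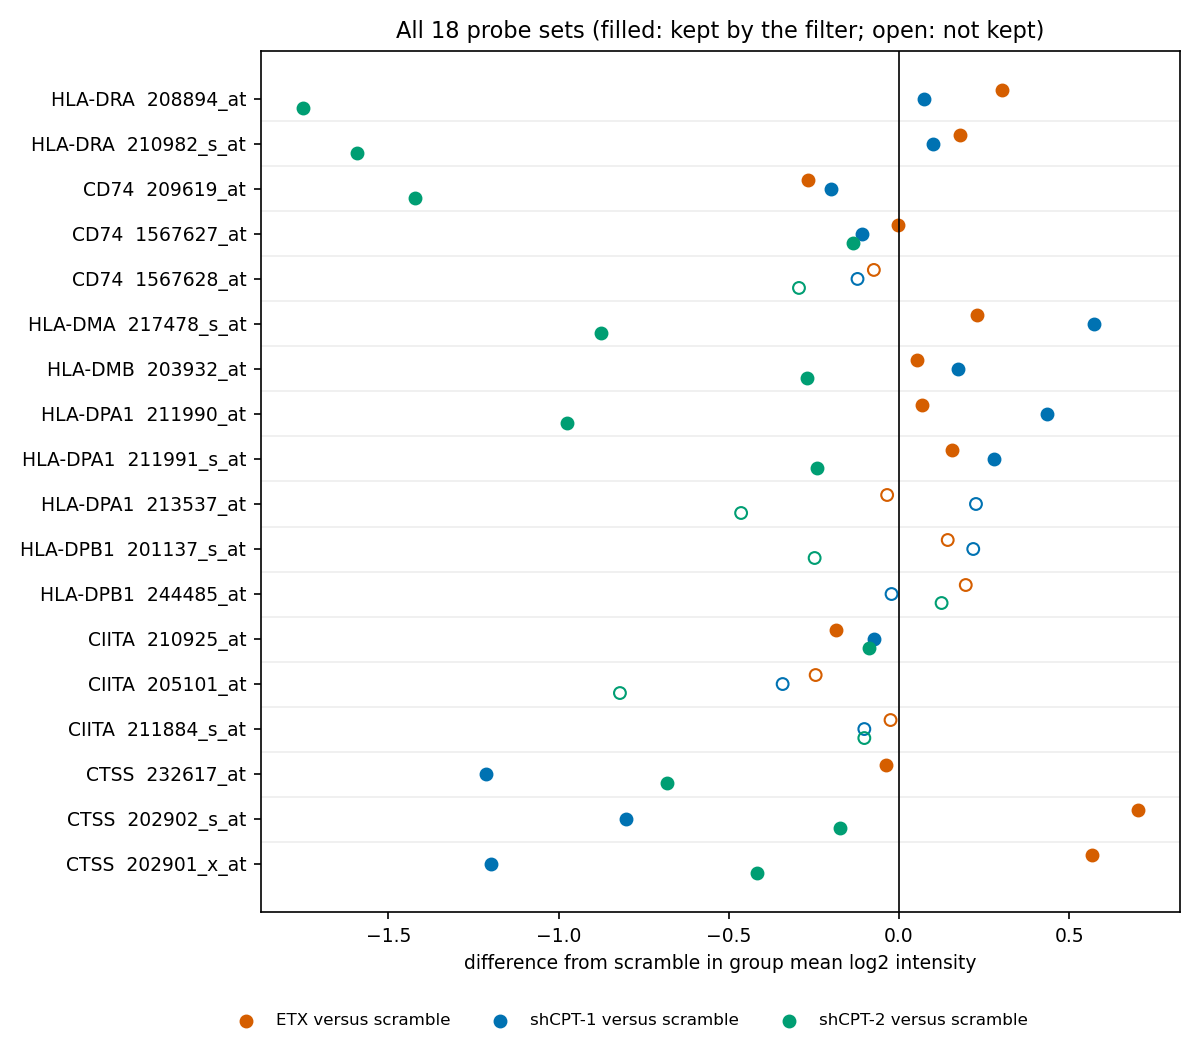
Difference from scramble in group mean log2 intensity for each of the 18 probe sets in ETX, shCPT-1 and shCPT-2 cells; filled points passed the filter on low values and open points did not. The shCPT-2 points run from -1.75 for HLA-DRA 208894_at to 0.12 for HLA-DPB1 244485_at, and the 3 CTSS probe sets are lowest in shCPT-1.

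Across the genes, 7 were tested, and their passing the filter depended on the groups where they were high. Against scramble, limma called 6 of the 7 lower and 0 higher in shCPT-2 cells, beside 20.5% of all tested genes called lower and 25.6% higher (46.1% called in all). In shCPT-1 cells 2 were called higher, HLA-DMA and HLA-DPA1, and 2 lower, CD74 and CTSS, beside 23.1% and 18.0% (41.1% in all). In ETX cells CD74 was called lower and 0 genes higher, beside 19.4% and 21.9% (41.3% in all). These contrasts were among those that chose the genes, so nothing is read from the counts. The HLA-DMB call in shCPT-2 cells ended without scramble array 1 or 3 or without shCPT-2 array 2 or 3, and the CD74 call in ETX cells without scramble array 1. The CD74 call in shCPT-1 cells ended without scramble 1 or 2, ETX 1, any shCPT-1 array or shCPT-2 3, which left CTSS as the 1 gene called lower. That call also ended without a filter, with the filter at the 25th percentile, with each array centred on its median, with only the arrays compared and with the replicate block, and the CD74 call in ETX cells with the mean of the kept probe sets. In ETX cells, without single arrays, HLA-DMA (scramble 2, ETX 3, shCPT-2 2) or HLA-DRA (shCPT-2 2 or 3) was also called higher and CIITA lower (ETX 2). With all arrays kept, HLA-DMA was called higher there with repeated quantile normalization, with median centring and with a trended, robust variance model. HLA-DRA was called higher with only the arrays compared, both genes with array weights, and CTSS with the mean of its kept probe sets. The median difference of the 7 genes was 0.05 in ETX, 0.07 in shCPT-1 and -0.87 in shCPT-2 cells, beside -0.013, 0.008 and 0.005 over all tested genes.

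Between the treatments, shCPT-2 cells differed from ETX cells by -2.05 for HLA-DRA, -1.15 for CD74, -1.10 for HLA-DMA and -1.04 for HLA-DPA1, and 6 of the 7 genes were called lower and 0 higher beside 20.9% and 24.9% of all (45.8% in all). From shCPT-1 cells, shCPT-2 cells differed by -1.83 for HLA-DRA, -1.45 for HLA-DMA, -1.41 for HLA-DPA1 and -1.22 for CD74. There 5 were called lower beside 17.8%, and CTSS, at 0.53, was the 1 gene called higher beside 17.7% (35.5% in all). In shCPT-1 cells against ETX cells, CTSS differed by -1.18, the 1 gene called lower beside 19.8%, and HLA-DMA and HLA-DPA1 by 0.35 and 0.37, the 2 called higher beside 22.9% (42.7% in all). The comparisons share arrays and are not independent of each other.

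**Figure D3:**
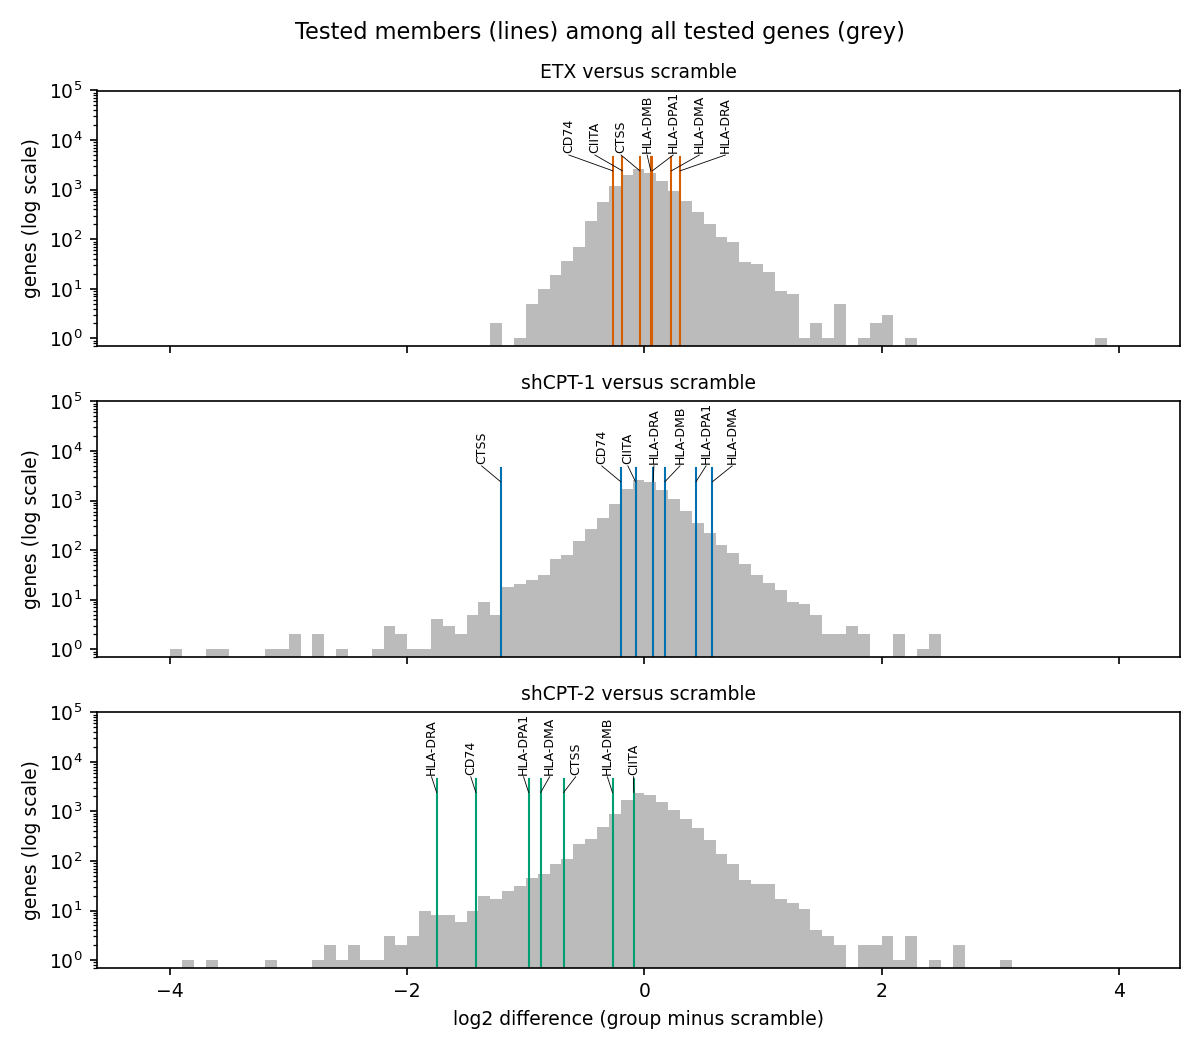
Histogram of the log2 difference from scramble over all 12886 tested genes (grey, gene counts on a log scale) in ETX, shCPT-1 and shCPT-2 cells, with the 7 tested class II genes as lines. In shCPT-2 cells the lines run from -1.75 (HLA-DRA) to -0.09 (CIITA), in shCPT-1 cells CTSS is at -1.21, and in ETX cells all 7 lie between -0.27 and 0.30.

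HLA-DRA varied with the other chain genes mainly through the shCPT-2 arrays. Over the 12 arrays its correlation was 0.93 with HLA-DPA1, 0.92 with CD74, 0.90 with HLA-DMA, 0.80 with HLA-DMB, 0.24 with CTSS and -0.01 with CIITA. Over the 9 arrays without shCPT-2 these were -0.02, -0.75, 0.04, 0.37, 0.12 and -0.03. The CIITA correlations use its kept probe set, 210925_at, which lay near the array median, so nothing is read from them. Of its dimmer probe sets, 205101_at was lowest in shCPT-2 cells, at -0.82 from scramble without overlap, and 211884_s_at overlapped scramble there. Whether these dimmer probe sets vary with HLA-DRA was not tested. The 5 tested genes outside the set with the highest correlation with HLA-DRA over 12 arrays were DUSP4 (0.987), CD59 (0.987), PSME1 (0.983), FKBP7 (0.98) and CPT2 (0.979), among 163 of 12879 genes above 0.9. Over the 9 arrays without shCPT-2 their correlations were 0.755 for DUSP4, 0.727 for CD59, 0.861 for PSME1, 0.635 for FKBP7 and 0.823 for CPT2. The arrays share their group, so these correlations describe a common pattern over 4 groups. CPT2, the gene that the shCPT-2 hairpin targets, was among them.

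Some of the other class II chain genes were lower in shCPT-2 cells too. This list and all lists below were chosen with earlier results of these data known. The genes named from each are those with the smallest p. Their p-values therefore describe these genes and are no independent support for a list. Of 11 genes 6 were tested, and 3 fell and 0 rose by limma (median -0.26; 3 and 0 at an unadjusted p under 0.05), to be set beside the shares of all genes given above. HLA-DRB1, a beta chain of HLA-DR, read 6.87, 6.82 and 6.91 in shCPT-2 cells, against 8.08, 8.11 and 8.08 in scramble cells, and fell by 1.22 (SE 0.06, limma, adjusted p = 1.76e-08). In ETX cells it read 8.15, 8.17 and 7.92 and in shCPT-1 cells 8.17, 8.24 and 8.17, near scramble. HLA-DRB6, a pseudogene, fell by 0.74 (SE 0.07, limma, adjusted p = 2.67e-06), and HLA-DQB1, a beta chain of HLA-DQ, by 0.36 (SE 0.06, limma, adjusted p = 0.000558). All 3 values come from probe sets of a kind that can cross-hybridise with sister genes, so they may not be separate from each other, and without such probe sets 0 genes of this list were called lower. In ETX cells limma called 0 in either direction (also 0 at an unadjusted p under 0.05), and in shCPT-1 cells 0 rose and 1 fell, HLA-DOB, by 0.31. Leaving out shCPT-1 1, shCPT-2 1, shCPT-2 3 or any single scramble array ended the HLA-DOB call.

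Of 12 genes for factors that act at class II promoters 11 were tested. In shCPT-2 cells 4 rose and 3 fell (median 0.08), in shCPT-1 cells 3 rose and 3 fell, and in ETX cells 4 rose and 2 fell. Beside the shares of all tested genes (25.6% higher and 20.5% lower in shCPT-2 cells), nothing is read from these counts. RFXAP, a subunit of the RFX complex, read 7.05, 7.18 and 6.78 in ETX cells, 6.8, 6.92 and 6.92 in shCPT-1 cells, 7.78, 7.25 and 7.55 in shCPT-2 cells, and 6.14, 6.35 and 6.15 in scramble cells. It rose in all 3 groups, by 1.31 in shCPT-2 cells (SE 0.13, limma, adjusted p = 4.08e-06). RFXAP was above the array median on 10 of 12 arrays. Its scramble values lay around the medians of those arrays (6.25 to 6.27), so the rise is measured from near background. NFYB, a subunit of NF-Y, rose by 0.43 in shCPT-2 cells (limma, adjusted p = 4.17e-05), and RFX5, another RFX subunit, fell by 0.25 there (limma, adjusted p = 0.000723). ZXDC, which works with CIITA, rose by 0.54 in shCPT-2 cells. The counts of genes that fell in ETX and shCPT-1 cells moved by over 1.5 times without single arrays: 1 in ETX cells without scramble 1, ETX 1, ETX 2, shCPT-1 2, shCPT-1 3 or shCPT-2 1, and as few as 0 in shCPT-1 cells without scramble 1 or 2 or shCPT-1 1 or 2.

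Of 16 proteases and other processing genes 13 were tested, and 7 rose and 3 fell in shCPT-2 cells, 7 rose and 2 fell in shCPT-1 cells, and 5 rose and 3 fell in ETX cells (medians 0.13, 0.38 and 0.05). Over all tested genes the called shares were also larger upward than downward, 25.6% and 20.5% in shCPT-2, 23.1% and 18.0% in shCPT-1, and 21.9% and 19.4% in ETX cells. CTSV, a cathepsin that can also trim the invariant chain, rose by 0.66 in shCPT-2 cells and 0.59 in shCPT-1 cells (limma, adjusted p = 7.32e-07 and 2.98e-06). CTSH, cathepsin H, rose by 0.54 and 0.43, and MARCHF8, a ubiquitin ligase that removes class II from the surface, by 0.35 and 0.50. CST3, cystatin C, an inhibitor of cathepsins, fell by 0.71 in shCPT-2 cells (limma, adjusted p = 1.37e-06) and by 0.34 in both other groups. The 2 that fell in shCPT-1 cells became 1 without scramble 2, ETX 1, ETX 2, shCPT-1 2, shCPT-1 3, shCPT-2 1 or shCPT-2 3.

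Of 15 genes of interferon gamma signalling, which induces CIITA, 12 were tested. In shCPT-2 cells 8 fell and 1 rose (median -0.19), beside 20.5% of all tested genes called lower and 25.6% higher, with 2 rising without scramble 3 or shCPT-2 2. GBP2, an interferon-induced GTPase, read 6.89, 6.52 and 6.5 in shCPT-2 cells, against 8.58, 8.41 and 8.39 in scramble cells, and fell by 1.82 (SE 0.09, limma, adjusted p = 1.63e-08). In ETX and shCPT-1 cells it differed by -0.10 and -0.23 (limma, adjusted p = 0.382 and 0.0661). IRF1, a transcription factor of the pathway that acts on the CIITA promoter, read 9.54, 9.62 and 9.61 in ETX cells, 8.48, 8.59 and 8.5 in shCPT-1 cells, 8.31, 8.22 and 8.31 in shCPT-2 cells, and 9.21, 9.29 and 9.25 in scramble cells. It rose by 0.34 in ETX cells and fell by 0.72 in shCPT-1 and by 0.97 in shCPT-2 cells (limma, adjusted p = 0.000214, 2.89e-07 and 1.49e-08). GBP1, a related GTPase, rose by 0.22 in ETX cells (limma, adjusted p = 0.0129), a call that ended without scramble 1 and with the mean of its probe sets, and fell by 0.57 in shCPT-1 and by 0.96 in shCPT-2 cells. SOCS1, a feedback inhibitor, fell by 0.84 in ETX, by 0.23 in shCPT-1 and by 0.86 in shCPT-2 cells, and the shCPT-1 call ended without scramble 1 or 3 or any shCPT-1 array. In ETX cells 4 genes rose and 2 fell, but 2 rose without scramble 1 and 1 fell without ETX 2. In shCPT-1 cells 3 rose and 3 fell, and as few as 0 rose without scramble 1, shCPT-1 2 or shCPT-1 3.

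The MHC class I chains and loading genes, which carry peptides of the cytosol, differed between the groups as well. Of 20 genes 19 were tested, and 9 fell and 1 rose in shCPT-2 cells (median -0.16). In ETX cells 11 rose and 1 fell (median 0.17), with 3 falling without scramble 3. The 11 became 8 to 10 without single arrays and ranged from 4 to 12 over all alternatives. Among the 11 were HLA-B, HLA-C, HLA-E, HLA-F and HLA-G, read from probe sets of a kind that can cross-hybridise with sister genes, so they may not be separate from each other. The shares over all tested genes were 20.5% lower and 25.6% higher in shCPT-2 cells, and 19.4% lower and 21.9% higher in ETX cells. In shCPT-1 cells 5 rose and 5 fell, and without scramble 1 or 2, ETX 1 or 2, or any shCPT-1 array as few as 0 rose. PSMB10 and PSMB8, subunits of the immunoproteasome, fell by 0.56 and 0.35 in shCPT-2 cells (limma, adjusted p = 3.44e-06 and 4.46e-05), while PSMB8 rose by 0.20 in ETX cells. TAPBP, tapasin, which helps load class I, fell by 0.47 in shCPT-2, by 0.34 in ETX and by 0.30 in shCPT-1 cells. It was the 1 gene of this list called lower in ETX cells. The ETX and shCPT-1 calls of TAPBP ended with the mean of its probe sets. PDIA3, a chaperone of the loading complex, fell by 0.71 in shCPT-2 cells, but by 0.14, uncalled, with the mean of its probe sets. In shCPT-1 cells PDIA3 fell by 0.54, a call that also ended with that mean, and PSMB10 fell by 0.23.

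**Figure D4:**
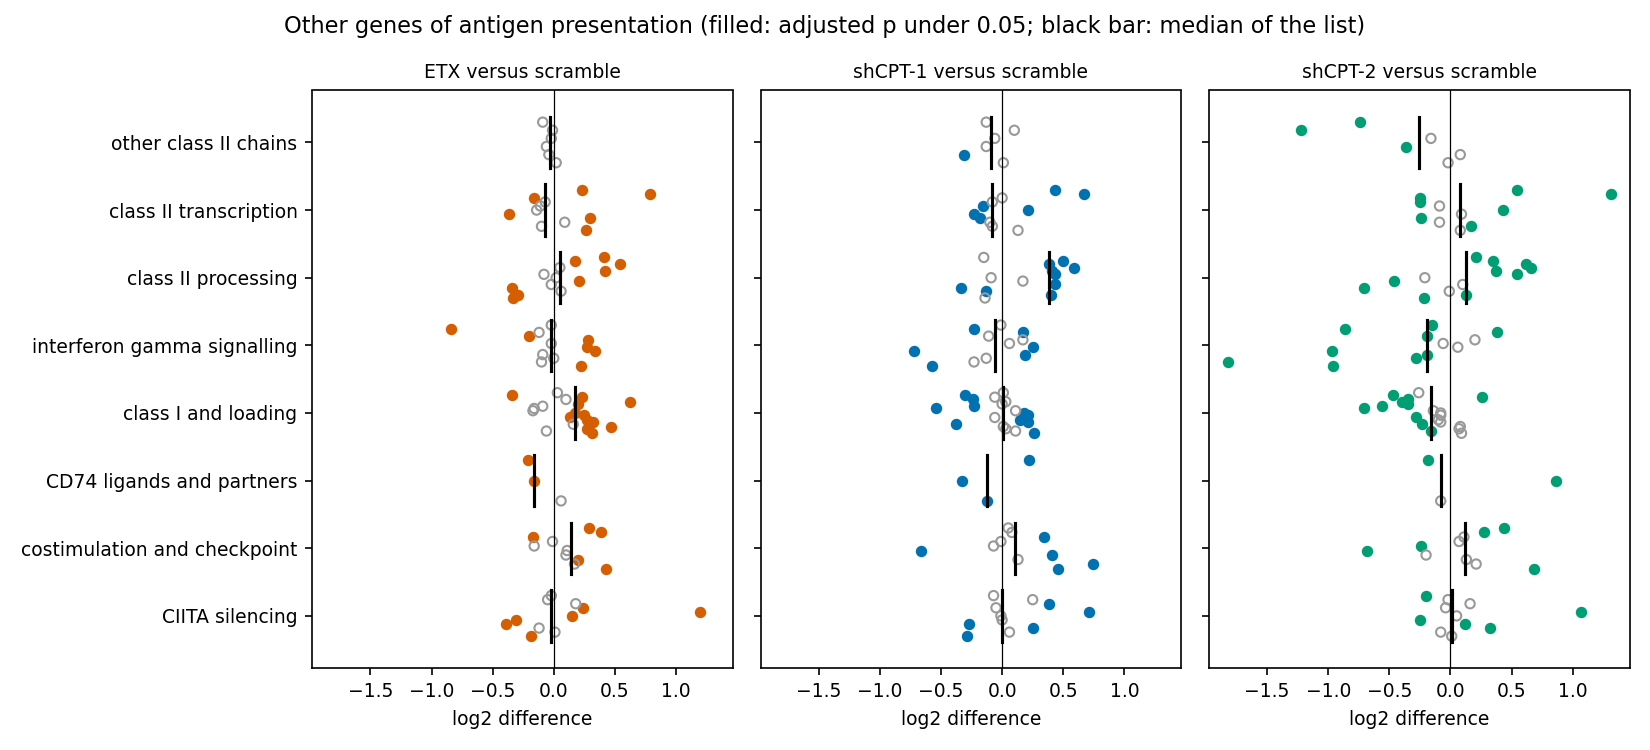
Log2 difference from scramble for each tested gene (points) of 8 lists of antigen presentation genes that are not among the 8 described, in ETX, shCPT-1 and shCPT-2 cells; filled points have an adjusted p under 0.05 and black bars mark the list medians. In shCPT-2 cells the medians run from -0.26 for the other class II chains to 0.13 for class II processing, and in ETX cells that of the class I genes is 0.17.

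Markers of other cells that use class II were read on the same arrays. Over 13 leukocyte genes the summed intensity was 1862 to 1937 in shCPT-2 cells, against 2503 to 2518 in ETX, 2577 to 2663 in shCPT-1 and 3170 to 3318 in scramble cells. LAPTM5 made up most of that sum and fell by 0.49 in ETX, by 0.44 in shCPT-1 and by 1.09 in shCPT-2 cells (limma, adjusted p = 8.48e-06, 6.61e-06 and 2.43e-09). CSF1R, a receptor of macrophages, above the array median on 6 arrays, fell by 0.29 in ETX and by 0.52 in shCPT-2 cells (limma, adjusted p = 0.0145 and 0.000256). The other 12 summed to 721 to 764 in shCPT-2, 702 to 790 in ETX, 764 to 836 in shCPT-1 and 747 to 788 in scramble cells. Of the 13, 7 were never above the array median: PTPRC, CD3D, MS4A1, CD14, LYZ, TYROBP and ITGAX. CD3E, CD79A and AIF1, like LAPTM5, were above it on all 12 arrays, and FCER1G on 2. CD3E, CD79A and AIF1 were not called against scramble in any group. Sums of 5 endothelial genes were 330 to 345 in shCPT-2, 369 to 404 in ETX, 337 to 384 in shCPT-1 and 394 to 406 in scramble cells. Those of 6 fibroblast genes were 540 to 541 in shCPT-2, 522 to 553 in ETX, 569 to 598 in shCPT-1 and 591 to 627 in scramble cells. The part of these markers in the class II differences was not tested.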

How the data were processed

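Total RNA of MDA231 cells was labelled with biotin and hybridised to 12 Affymetrix arrays, per the labels. The deposited values are 1 linear intensity per probe set and array, 6.68 to 28791, which the authors made with RMA per the submitters' processing notes. Its version and settings, and any genome build, were not stated there. Log2 intensities were computed here, and all columns were mapped to labelled arrays. Of 54675 probe sets 62 were controls, 41091 had 1 symbol, 1801 several and 11721 none. A probe set passed the filter if it lay above the median of at least 3 arrays (28628 kept, 12 of the 18 described here), and the kept one with the highest mean stood for a gene (12886 genes). Probe sets with several symbols named no gene.

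The group comparisons used limma (version 3.58.1; lmFit, eBayes) on all 12 arrays without covariates, with 8 residual degrees of freedom and 4.117 prior ones, in R 4.3.3 (tables read with data.table, version 1.17.8). Two-sided p-values were adjusted by Benjamini-Hochberg over all tested genes of a comparison, and calls were made under 0.05. For 3 arrays against 3 the smallest exact p is 0.1. The 8 genes, the 8 lists (106 genes, 85 tested) and the markers were chosen with earlier results of these data known. Of each list up to 4 genes with the smallest p were named, and for likeness the 5 highest Pearson correlations with HLA-DRA. Alternatives covered the filter, the probe sets, normalization, the variance model, the arrays used, array weights, a replicate block and leaving out each array. Promoters were searched and figures drawn in Python (3.11.15) using pandas 2.3.3, matplotlib 3.10.9 and numpy 2.4.6.

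Values of 12886 genes were simulated with the means and spreads of these arrays and independent normal noise, and some genes were lowered in shCPT-2 cells. Against scramble, 87 of 100 genes lowered by 0.5 and 99 of 100 lowered by 1 on the log2 scale were called. There were 16 calls among 12686 unchanged genes. The changed genes were a far smaller share than the 46.1% called on the arrays, so these figures do not carry over to the arrays. For arrays, signal over background and the number of arrays limit the precision.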

Additional observations from a re-analysis of the deposited data

Results flagged for a closer look

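Some class II genes lay on opposite sides of scramble in different groups, with every array of one group below and every array of the other above all scramble arrays. For the probe sets that stand for HLA-DRA, HLA-DMA and HLA-DPA1, limma called the difference between the groups, from which nothing is read because these genes were chosen with it known. For the other probe sets it was not tested. HLA-DRA 208894_at was lower in shCPT-2 than in ETX cells, by -2.05 on the log2 scale (-1.75 and 0.30 from scramble). Against shCPT-1 cells, shCPT-2 cells differed by -1.45 for HLA-DMA (-0.87 and 0.57 from scramble) and by -1.41 for HLA-DPA1 211990_at (-0.98 and 0.44). HLA-DPA1 211991_s_at differed by -0.52 (-0.24 and 0.28) and HLA-DPB1 201137_s_at by -0.47 (-0.25 and 0.22), both dimmer. For CTSS 202902_s_at, shCPT-1 differed from ETX cells by -1.51 (-0.80 and 0.70 from scramble). For CTSS 202901_x_at this was -1.77 (-1.20 and 0.57), and shCPT-2 differed from ETX cells by -0.98 (-0.42 and 0.57). The third CTSS probe set, 232617_at, had ETX cells at -0.04 from scramble, so its ETX values were not opposite.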

How the results depend on the processing

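Of 132 recomputed counts of called genes 131 stayed within 1.5 times of the count reported, and the exception was shCPT-2 versus shCPT-1 with array weights, 7469 in place of 4575. Leaving out 1 array gave 4025 to 5576 called genes for ETX, 4378 to 5580 for shCPT-1 and 4942 to 6075 for shCPT-2 against scramble. Of 918 recomputed differences of the class II genes 897 moved by less than the spread between replicates and 21 by more, and 0 called values changed sign. CTSS in ETX cells, uncalled at -0.04, was 0.41 and called higher with the mean of its probe sets. HLA-DMA has no value without probe sets that can cross-hybridise. Over all alternatives the genes called lower in shCPT-2 cells numbered 5 to 7, the 7 with HLA-DPB1 under a laxer filter. Of 2676 recomputed differences of named list genes 80 lost and 31 gained a call, and 1 turned: ZXDC in ETX cells, 0.23, was -0.07 with the mean of its probe sets. The cause was not tested. Of 1056 recomputed list counts 144 moved by over 1.5 times. With the replicate number as a block, 5075 genes were called for ETX versus scramble, 5063 for shCPT-1 versus scramble and 5748 for shCPT-2 versus scramble. Arrays of the same number share only a number: their deviations from group means correlated at -0.456 to 0.328 over 18 pairs, and 3 of 12 arrays correlated best with their own number. Signal near the array median limits CIITA, HLA-DPB1 and the dimmer probe sets.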

Other observations

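Genes that act beside class II at the cell surface changed in several directions. Of 15 costimulation and checkpoint genes 10 were tested. Of all tested genes 25.6% were called higher and 20.5% lower in shCPT-2, 23.1% and 18.0% in shCPT-1, and 21.9% and 19.4% in ETX cells. Beside these shares nothing is read from the counts that follow. In shCPT-2 cells 3 rose and 2 fell, the 2 becoming 1 without scramble 2 or ETX 2 and the 3 becoming 5 without ETX 3, and in shCPT-1 and ETX cells 4 rose and 1 fell each. The 1 that fell in ETX cells was no longer called without scramble 1, scramble 2, any ETX array, shCPT-1 2 or shCPT-2 1, and 2 fell without scramble 3. CD274, the checkpoint ligand PD-L1, rose by 0.43 in ETX, 0.46 in shCPT-1 and 0.68 in shCPT-2 cells (limma, adjusted p = 3.25e-05, 8.16e-06 and 2.15e-07). ICAM1, an adhesion molecule, fell by 0.66 in shCPT-1 and 0.68 in shCPT-2 cells. CD276, a B7 family member, rose by 0.74 in shCPT-1 cells. PVR, a ligand of receptors on T cells other than the antigen receptor, rose by 0.39 in ETX and by 0.27 in shCPT-2 cells. The shCPT-2 call of PVR ended with the mean of its probe sets (0.10).

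Of 6 genes listed as ligands or partners of CD74, 3 were tested, and their counts are to be set beside the shares of all tested genes given above. In ETX cells 0 rose and 2 fell by limma (0 and 2 at an unadjusted p under 0.05), in shCPT-1 cells 1 rose and 2 fell, and in shCPT-2 cells 1 rose and 1 fell. The 2 that fell became 1 in ETX cells without scramble 1, ETX 1 or ETX 2. CXCR4, a chemokine receptor that can pair with CD74, rose by 0.86 in shCPT-2 cells and fell by 0.33 in shCPT-1 cells (limma, adjusted p = 7.4e-08 and 0.000266). MIF, a ligand of CD74, fell by 0.21 in ETX cells and by 0.18 in shCPT-2 cells and rose by 0.22 in shCPT-1 cells. CD44, a coreceptor, fell by 0.12 in shCPT-1 cells, a call that ended, leaving 1 that fell, without scramble 1 or 2, ETX 1 or 2, shCPT-1 1 or 2, or shCPT-2 3.

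All 11 genes listed for the silencing of CIITA were tested, and 3 rose in each group, while 3 fell in ETX cells and 2 in each knockdown. Over all tested genes 21.9%, 23.1% and 25.6% were called higher in ETX, shCPT-1 and shCPT-2 cells, and 19.4%, 18.0% and 20.5% lower. Beside these shares nothing is read from the counts. The 3 that rose in shCPT-2 cells ranged from 0 to 5 over all alternatives. The 2 that fell in shCPT-2 cells became 1 without scramble 1, scramble 3, shCPT-2 1 or shCPT-2 2. MYC rose by 1.20 in ETX, 0.71 in shCPT-1 and 1.07 in shCPT-2 cells (limma, adjusted p = 0.000325, 0.00699 and 0.000352). EZH2, a histone methyltransferase, fell by 0.39 in ETX and by 0.27 in shCPT-1 cells and rose by 0.12 in shCPT-2 cells (limma, adjusted p = 0.0497), a call that ended in 14 alternatives, among them leaving out any 1 scramble array, ETX 1 or 2, shCPT-1 2 or 3, or shCPT-2 2 or 3. HDAC1, a histone deacetylase, fell by 0.31 in ETX and 0.25 in shCPT-2 cells, and DNMT1, a DNA methyltransferase, fell by 0.19 in ETX and 0.29 in shCPT-1 cells.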
